A study of Homo sapiens with 6 samples.

Results

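A group of 10 genes of the Wnt pathway was followed on all arrays: the ligand WNT5A, the receptors FZD1, FZD2, FZD6, FZD7 and FZD8, the receptor-removing ligase RNF43, the secreted antagonist DKK1, the scaffold AXIN2 and the nuclear factor LEF1. The members were every probe set, that is every group of short probes read together as 1 transcript signal, whose platform annotation names 1 of these 10 genes. They numbered 22 of the 54675 probe sets on the array. Of the 22, 19 were assigned to 1 gene and the 3 of FZD8 were assigned to both FZD8 and MIR4683, so that these 3 cannot be read as FZD8 alone.

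The cells were KHOS and U-2OS, established human osteosarcoma lines. Each line was transfected with CDK11 siRNA at 40 nM, transfected with nonspecific siRNA at 40 nM, or left untransfected, and the methods give 48 h after transfection with CDK11 siRNA. CDK11 is a cyclin-dependent kinase that acts in transcription and splicing. Each array held pooled RNA of 3 flasks. A transfection of a line thus had 1 array, the series had 6, and no difference within a line has a replicate check.

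Wnt proteins are secreted ligands that bind frizzled receptors. In the canonical branch this stops the destruction complex, in which AXIN2 is a scaffold, from removing beta-catenin, which then joins LEF1 and related factors on DNA. AXIN2, RNF43, DKK1 and LEF1 are themselves known targets of the branch in many tissues, and the first 3 damp it. WNT5A is known mostly for signalling that does not run through beta-catenin. In bone, canonical Wnt signalling promotes osteoblast formation and DKK1 restrains it.

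The deposited signals are on the log2 scale, and every level and difference below is on that scale unless a fold is named. Array medians lay between 2.92 and 2.98. A signal of 100, which is 6.64 on the log2 scale, is called the signal limit, and 24.8% to 25.9% of the probe sets of an array exceeded it. The targeted gene was lower: CDK11 minus nonspecific siRNA was below 0 on all 5 probe sets assigned to CDK11A and CDK11B, with differences from -2.32 to -1.32 in KHOS and from -2.76 to -0.21 in U-2OS. Of the mesenchymal markers VIM, FN1 and CDH2 lay above the limit on every array, VIM at 15.36 or more in KHOS and at most 14.68 in U-2OS, while TAGLN was at most 2.66 in KHOS and at 8.01 or more in U-2OS. Of the epithelial markers EPCAM was at 8.81 or more in KHOS and at most 5.89 in U-2OS, KRT8 at most 7.68 in KHOS and at 11.35 or more in U-2OS, KRT18 at 13.40 or more on all arrays, and CDH1 and KRT19 at most 2.38. Neither list thus ran in 1 direction between the lines. Of the osteoblast markers COL1A1 and SPARC were at 11.69 or more on all arrays, RUNX2 was at 9.51 to 10.24 in KHOS and 4.39 to 7.03 in U-2OS, SPP1 stayed below the limit, and SP7, ALPL, COL1A2 and IBSP lay close to the array medians or below them. No blood cell marker measured exceeded 3.22. Whether such differences between the lines bear on the Wnt genes was not tested.

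Probe sets above the limit on at least 1 array were kept. These were 16397, among them 13 of the 22 members, from 9 of the 10 genes. AXIN2 had none. Only 3 of the 13 were above the limit on all 6 arrays, and 8 were above it in 1 line only. Such a probe set passed through the line in which it was high and therefore had to differ between the lines, so the counts over the members that passed carry no support of their own.

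Promoter sequence is shown for DKK1 and LEF1, the members with the largest difference between the lines in each direction, and for RNF43, a further target lower in KHOS. The 3 runs are the 250 bases before the RefSeq transcription start, from build GRCh38.p14, at chr10:52314031-52314280 on the plus strand for DKK1, chr4:108166302-108166551 on the minus strand for LEF1 and chr17:58417535-58417784 on the minus strand for RNF43. Capitals mark CTTTGA or CTTTGT on either strand, the short core that LEF1 and its relatives are known to bind.
DKK1: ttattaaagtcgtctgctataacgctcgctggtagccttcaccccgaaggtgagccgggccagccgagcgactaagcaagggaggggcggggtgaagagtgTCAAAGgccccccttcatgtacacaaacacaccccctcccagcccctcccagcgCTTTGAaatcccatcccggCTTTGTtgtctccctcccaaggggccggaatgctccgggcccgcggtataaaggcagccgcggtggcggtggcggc
LEF1: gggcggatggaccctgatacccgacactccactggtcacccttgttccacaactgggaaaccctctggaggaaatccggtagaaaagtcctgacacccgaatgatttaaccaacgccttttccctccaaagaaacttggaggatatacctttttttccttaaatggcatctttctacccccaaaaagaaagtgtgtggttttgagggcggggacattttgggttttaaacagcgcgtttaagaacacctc
RNF43: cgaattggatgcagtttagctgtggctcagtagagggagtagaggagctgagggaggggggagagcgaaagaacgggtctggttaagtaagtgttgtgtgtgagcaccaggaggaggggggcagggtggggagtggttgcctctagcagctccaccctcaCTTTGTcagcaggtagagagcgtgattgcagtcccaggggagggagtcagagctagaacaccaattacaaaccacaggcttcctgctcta
RNF43 has 2 promoters in the table, of which the farther upstream is shown. The DKK1 promoter held 3 such matches, each RNF43 promoter 1 and the LEF1 promoter 0. Over all 35116 promoters of the table, 22.8% held at least 1 match and 0.584% at least 3. RefSeq entries were matched for 6 of the 10 genes, with 8 promoters, of which 4 held at least 1. A match is a string of letters and not a measured binding site, and no array value bears on binding there.

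Between the lines, KHOS had more signal of the antagonist DKK1, the ligand WNT5A and the receptors FZD1, FZD2, FZD7 and FZD8, and less of LEF1 and RNF43, while FZD6 overlapped. In the limma fit with transfection as a term, 12 of the 13 kept members passed at an adjusted p of 0.05, 10 higher and 2 lower in KHOS. The background was high: 72.1% of all kept probe sets passed, 39.6% higher and 32.6% lower in KHOS. The 3 arrays of KHOS and the 3 of U-2OS did not overlap for the same 12 members, against 74.0% of all kept probe sets. The median difference of the members was 2.86, against 0.0985 over all kept probe sets, and since 8 of the 13 passed the limit in 1 line only it carries no more support than the counts. The arrays of a line are not separate lines and the pooled flasks were not kept apart. With transfection as a term, these p-values set the mean line difference against the disagreement of the line differences of the 3 transfections. Limma moderates that spread over all kept probe sets.

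**Figure D1:**
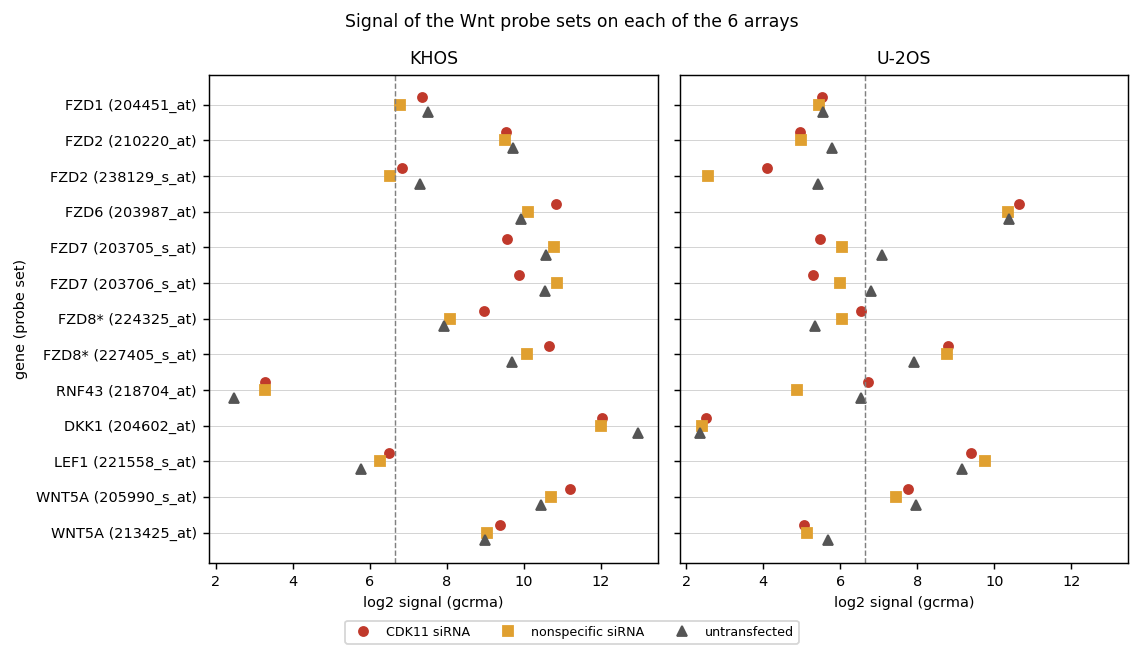
Log2 signal of the 13 kept member probe sets on the 3 arrays of KHOS (left) and of U-2OS (right). Symbols give the transfection, the dashed line is the signal limit of 6.64, and an asterisk marks probe sets assigned also to MIR4683. DKK1 lay at or above 12.02 on every KHOS array and at or below 2.50 on every U-2OS array.

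WNT5A was measured by 2 probe sets, both above the limit on every KHOS array. The brighter (205990_s_at) was at 11.20 with CDK11 siRNA, 10.71 with nonspecific siRNA and 10.44 untransfected in KHOS, and at 7.75, 7.46 and 7.97 in the same sequence in U-2OS. All KHOS arrays were above all U-2OS arrays, by a difference of 3.06 ± 0.22 (SE, limma, adjusted p = 0.000307), an 8.35-fold higher signal in KHOS. The second (213425_at) was at 9.38, 9.04 and 9.00 in KHOS and at 5.05, 5.14 and 5.68 in U-2OS, where every array was below the limit. Its difference was 3.85 ± 0.21 (SE, limma, adjusted p = 0.000157), so that both probe sets placed WNT5A higher in KHOS. With CDK11 siRNA both were the highest of the 3 transfections in KHOS and neither was in U-2OS.

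FZD7, a frizzled receptor of both Wnt branches, was higher in KHOS and was lower with CDK11 siRNA on every comparison of arrays. The first probe set (203705_s_at) was at 9.58 with CDK11 siRNA, 10.80 with nonspecific siRNA and 10.57 untransfected in KHOS, and at 5.47, 6.05 and 7.07 in U-2OS. The second (203706_s_at) was at 9.88, 10.86 and 10.55 in KHOS and at 5.30, 5.99 and 6.81 in U-2OS. On both, CDK11 siRNA was the lowest array of each line, and in U-2OS the nonspecific siRNA array stood between the other 2. KHOS minus U-2OS was 4.12 ± 0.25 for the first and 4.40 ± 0.24 for the second (SE, limma, adjusted p = 0.000203 and 0.00015).

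FZD2, another frizzled receptor, was at 9.53, 9.51 and 9.72 in KHOS and at 4.96, 4.97 and 5.78 in U-2OS by its brighter probe set (210220_at). The lines did not overlap, and KHOS was higher by 4.35 ± 0.16 (SE, limma, adjusted p = 5.74e-05). Its other probe set (238129_s_at) was at 6.83, 6.52 and 7.31 in KHOS and at 4.09, 2.57 and 5.43 in U-2OS, where all 3 were below the limit. The difference of that probe set was 2.86 ± 0.40 (SE, limma, adjusted p = 0.00254), and its U-2OS arrays spread more widely than those of any other member.

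FZD1 was at 7.35, 6.79 and 7.50 in KHOS and at 5.52, 5.44 and 5.56 in U-2OS by the probe set that passed the limit (204451_at). KHOS was higher by 1.70 ± 0.15 (SE, limma, adjusted p = 0.000566). Both further FZD1 probe sets stayed between 2.10 and 3.25 on all arrays. FZD6, which in other settings restrains the canonical branch, was at 10.85, 10.10 and 9.93 in KHOS and at 10.65, 10.35 and 10.38 in U-2OS. Its lines overlapped, and the difference of -0.17 ± 0.16 did not pass (SE, limma, adjusted p = 0.378). It was the only kept member that did not.

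FZD8 shares its probe sets with MIR4683, the gene of a microRNA that RefSeq places inside FZD8 on the same chromosome. The mature microRNA at chr10:35641181-35641203 on the minus strand of GRCh38.p14 is given because the platform annotation names its gene beside FZD8. No value here is read as a level of the mature microRNA. Its seed, bases 2 to 8, is in capitals.
hsa-miR-4683: uGGAGAUCcagugcucgcccgau
The probe set 227405_s_at was at 10.64 with CDK11 siRNA, 10.08 with nonspecific siRNA and 9.70 untransfected in KHOS, and at 8.79, 8.78 and 7.92 in U-2OS. The probe set 224325_at was at 8.96, 8.09 and 7.93 in KHOS and at 6.55, 6.04 and 5.34 in U-2OS. On both, the untransfected array was the lowest in each line. CDK11 siRNA was the highest, but on 227405_s_at in U-2OS by only 0.0088 over nonspecific siRNA. KHOS was higher by 1.64 ± 0.15 on the first and 2.35 ± 0.14 on the second (SE, limma, adjusted p = 0.000607 and 0.000191). The remaining probe set stayed between 2.18 and 2.75.

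DKK1, which blocks the Wnt co-receptor LRP6, had the largest difference of all members. It was at 12.04 with CDK11 siRNA, 12.02 with nonspecific siRNA and 12.95 untransfected in KHOS. In U-2OS it was at 2.50, 2.41 and 2.36, below the median of every array. KHOS minus U-2OS was 9.91 ± 0.24 (SE, limma, adjusted p = 1.9e-05). Since the U-2OS values are at background, this size is not exact, and the KHOS mean lay 5.69 above the signal limit.

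LEF1 ran the other way. Its probe set 221558_s_at was at 6.49, 6.26 and 5.78 in KHOS, all below the limit, and at 9.40, 9.75 and 9.15 in U-2OS. The difference was -3.25 ± 0.15 (SE, limma, adjusted p = 9.56e-05), a 9.54-fold lower signal in KHOS. Both further LEF1 probe sets stayed between 2.87 and 3.89 on all arrays.

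RNF43, a ubiquitin ligase that removes frizzled receptors from the cell surface, was at 3.29, 3.28 and 2.46 in KHOS and at 6.71, 4.89 and 6.54 in U-2OS. Only the U-2OS array with CDK11 siRNA exceeded the limit. KHOS was lower, with a difference of -3.04 ± 0.49 (SE, limma, adjusted p = 0.00406), which no longer passed when all probe sets of the array entered the fit (limma, adjusted p = 0.0528). AXIN2 could not be compared: its 4 probe sets stayed between 2.04 and 5.48 on all arrays. The highest value, 5.48, belonged to 222696_at in U-2OS with CDK11 siRNA, against 4.19 with nonspecific siRNA and 4.18 untransfected, while KHOS had 4.15, 4.02 and 3.90.

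**Figure D2:**
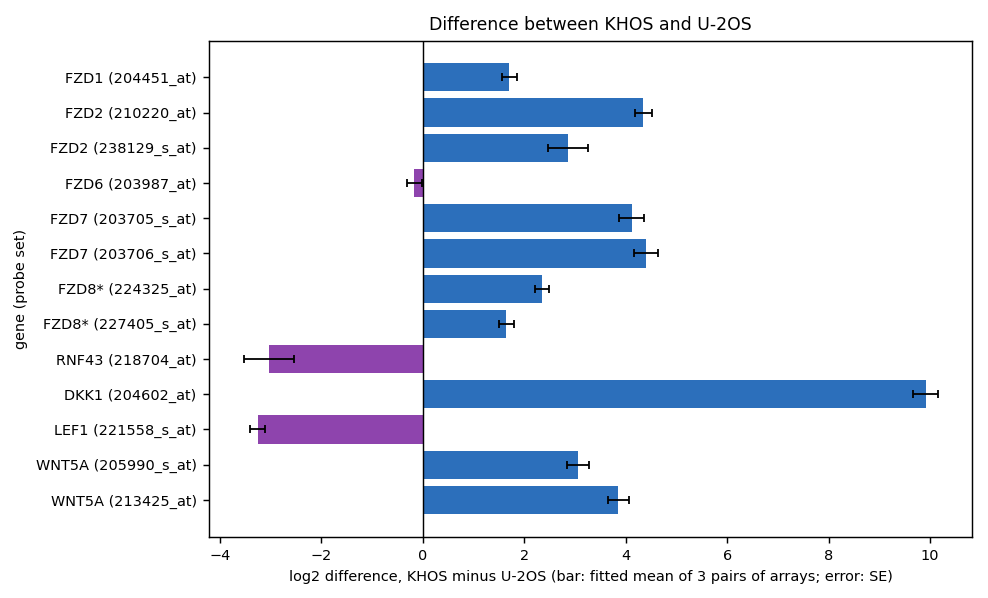
Log2 difference of KHOS minus U-2OS for the 13 kept member probe sets, fitted with limma over 3 arrays of each line. Error bars are the SE, and an asterisk marks probe sets assigned also to MIR4683. Bars right of 0 are higher in KHOS, with DKK1 at 9.91, and LEF1 at -3.25 and RNF43 at -3.04 are the lowest.

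The difference between the lines was present under each transfection for the 12 members that passed. DKK1 differed by 9.54 with CDK11 siRNA, 9.60 with nonspecific siRNA and 10.59 untransfected. WNT5A (205990_s_at) differed by 3.46, 3.26 and 2.47 in the same sequence. The spread was widest for RNF43, at -3.43, -1.61 and -4.08. FZD6 changed sign, with 0.20, -0.25 and -0.45. Whether the transfections differed between the lines could not be tested, as each had 1 array in a line.

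With CDK11 siRNA, both FZD7 probe sets were lower in KHOS and in U-2OS, against either control. Both kept FZD8 probe sets were higher, except that 227405_s_at in U-2OS was level with nonspecific siRNA, at 8.79 and 8.78. None passed the limma test over both lines. With the lines as replicates, 0 of the 16397 kept probe sets (0.0%) passed in each contrast, and 0 of the 13 members. At an unadjusted p under 0.05 there were 2337 probe sets (14.3%) and 4 of 13 members for CDK11 against nonspecific siRNA. For CDK11 siRNA against untransfected cells there were 3162 (19.3%) and 6, and for nonspecific siRNA against untransfected cells 1468 (8.95%) and 3. The 4 include both FZD7 probe sets, and the 6 include both FZD7 and both kept FZD8 probe sets, so they are not separate genes. In the same sequence, the smallest adjusted p of a member was 0.247, 0.106 and 0.484 (limma). The contrasts share arrays and are given side by side, not as separate evidence.

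FZD7 differed by -0.90 ± 0.31 and -0.83 ± 0.29 between CDK11 and nonspecific siRNA on its 2 probe sets (SE, limma, adjusted p = 0.312 and 0.325). Against untransfected cells the differences were -1.30 ± 0.31 and -1.09 ± 0.29 (SE, limma, adjusted p = 0.161 and 0.177). All 8 single differences, over 2 probe sets, 2 lines and 2 controls, were below 0 and ran from -1.60 to -0.58. They share the CDK11 siRNA array of each line and are not separate observations. The share of all kept probe sets with 1 sign throughout was not counted, so the agreement of signs carries no support. FZD8 differed by 0.69 ± 0.17 and 0.29 ± 0.18 against nonspecific siRNA (224325_at and 227405_s_at, SE, limma, adjusted p = 0.247 and 0.526). Against untransfected cells it differed by 1.12 ± 0.17 and 0.91 ± 0.18 (SE, limma, adjusted p = 0.106 and 0.131). Its 8 single differences were above 0 and ran from 0.0088, for 227405_s_at in U-2OS against nonspecific siRNA, to 1.21. When the variance prior of limma was let follow the level, FZD7 (203705_s_at) and both FZD8 probe sets passed against untransfected cells, and no member passed against nonspecific siRNA.

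FZD6 had 0.52 ± 0.19 against nonspecific siRNA and 0.59 ± 0.19 against untransfected cells (SE, limma, adjusted p = 0.336 and 0.212), with all 4 single differences between 0.27 and 0.92. RNF43 had 0.92 ± 0.60 and 0.50 ± 0.60 (SE, limma, adjusted p = 0.541 and 0.684), and its 4 single differences ran from 0.0086 to 1.83. Without the nonspecific siRNA array of U-2OS the first RNF43 value was -0.15, and without the untransfected KHOS array the second was -0.28. FZD6, FZD7, FZD8 and RNF43 are set out because their kept probe sets had 1 sign throughout. The remaining kept members had single differences with CDK11 siRNA of both signs.

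Within a line, the difference of 2 arrays was counted when it lay beyond 3 SD of all kept probe sets. In KHOS the bounds were -1.35 and 1.35 for CDK11 against nonspecific siRNA, and 0 of 13 members lay beyond them, against 1.38% of all kept probe sets. FZD7 (203705_s_at) came nearest at -1.22. CDK11 siRNA against untransfected KHOS cells and nonspecific siRNA against untransfected KHOS cells also gave 0 of 13, against 1.59% and 1.51%. DKK1 in KHOS differed by 0.03 between CDK11 and nonspecific siRNA, and by -0.91 between CDK11 siRNA and untransfected cells. Its lower signal thus stood on both siRNA arrays of KHOS, with -0.94 for nonspecific siRNA against untransfected cells.

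In U-2OS, 2 of 13 members lay beyond 3 SD for CDK11 against nonspecific siRNA, where 1.87% of all kept probe sets did. They were RNF43, higher by 1.83, and FZD2 (238129_s_at), higher by 1.52. Both were also beyond 3 SD for nonspecific siRNA against untransfected cells (1.59% of all), with -1.65 for RNF43 and -2.86 for FZD2, so that the nonspecific siRNA array was the lowest of the 3 for both. Against untransfected U-2OS cells (1.62% of all), CDK11 siRNA left RNF43 0.17 higher and within the bounds. Beyond them there were 3 of 13, all lower: FZD2 (238129_s_at), at -1.34, and the FZD7 probe sets, at -1.60 and -1.51. Each of these differences had at least 1 array below the signal limit, and the brighter FZD2 probe set differed by -0.01 between CDK11 and nonspecific siRNA in U-2OS.

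**Figure D3:**
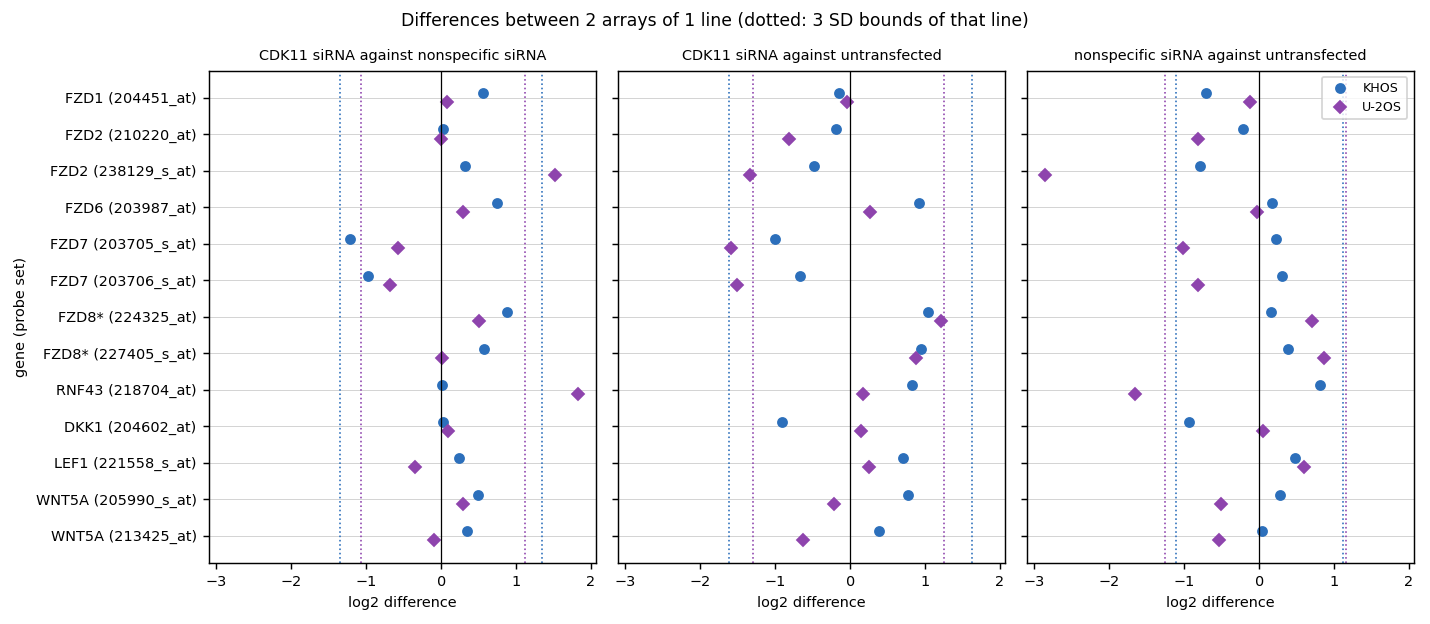
Log2 differences between 2 arrays of a line for the 13 kept member probe sets, in KHOS (circles) and U-2OS (diamonds), with the first-named transfection minus the second. Dotted lines are the 3 SD bounds of each line, and an asterisk marks probe sets assigned also to MIR4683. FZD7 lies left of 0 in both lines in the panels with CDK11 siRNA, and FZD2 (238129_s_at) and RNF43 of U-2OS lie outside the bounds on opposite sides in the panels that use nonspecific siRNA.

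Around the members, 106 further genes of the Wnt pathway were listed by role, and 43 of them had a probe set above the limit. By the brightest probe set of each gene, 31 of the 43 passed between the lines, 20 higher and 11 lower in KHOS, with a median difference of 0.28. Over all 8878 genes read in this way 71.2% passed, with a median of 0.0724, so the share of the list was close to the background. Of each list at most the 3 largest differences are named, a limit set after the values were seen, and beta-catenin is added. A difference against values near background is not exact.

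Of 18 other Wnt ligands 16 were measured and only WNT5B lay above the limit. It was higher in KHOS, as WNT5A was, with 5.98 to 7.39 in KHOS and 2.69 to 2.83, below the array medians, in U-2OS. Among the 11 other receptors and co-receptors 5 were above the limit, and 2 passed, both lower in KHOS: FZD3, at -1.20, and RYK, at -0.35. Among the turnover genes LGR4, an R-spondin receptor, was higher by 2.32. Of the other antagonists SFRP1, which binds Wnt ligands, was higher in KHOS by 4.21 and DKK3 lower, at -1.72. WLS, the carrier that brings Wnt proteins to the surface, was higher by 0.90.

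In the cytoplasmic relay 13 of 15 genes were above the limit, 7 higher in KHOS and 1 lower. TNKS, which marks axins for degradation, was higher by 1.97, GSK3B, a kinase of the destruction complex, by 0.88, and the kinase CSNK1E was lower, at -1.45. Beta-catenin itself (CTNNB1) was higher by 0.87 (limma, adjusted p = 0.0011). Of 3 other nuclear effectors above the limit, TCF7L2 and TLE3 were higher by 0.77 and 0.58, and the corepressor TLE1 was lower, at -1.84.

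Known beta-catenin targets, 11 above the limit, split into 7 higher and 3 lower in KHOS. TWIST1 was higher, with 10.94 to 11.13 in KHOS and 2.82 to 3.61 in U-2OS, and TNFRSF19 likewise, with 9.19 to 10.26 in KHOS and 2.84 to 3.09 in U-2OS. BMP4 was lower, with 3.51 to 4.56 in KHOS and 7.86 to 7.92 in U-2OS. The low side of all 3 was below the signal limit. In the WNT5A and planar polarity relay 4 of 8 passed, all lower in KHOS, with CAMK2D at -0.62, DAAM1 at -0.58 and RAC1 at -0.37. By limma 0 of the 43 passed in a contrast of transfections, with 6 at an unadjusted p under 0.05 for CDK11 against nonspecific siRNA, 5 for CDK11 siRNA against untransfected cells and 4 for nonspecific siRNA against untransfected cells. These are 14.0%, 11.6% and 9.3% of the 43, against 13.6%, 18.3% and 8.46% of all 8878 genes, so the list was near or below the background. Beyond 3 SD in KHOS were WNT5B, at 1.41, and MMP14, at 1.89, for CDK11 against nonspecific siRNA (1.38% of all kept probe sets). For nonspecific siRNA against untransfected KHOS cells (1.51% of all) it was WNT5B, at -1.36. Against untransfected KHOS cells, CDK11 siRNA left WNT5B 0.05 and MMP14 0.91 higher, both within the bounds. The nonspecific siRNA array of KHOS was the lowest of the 3 for both. In U-2OS only TNKS was beyond 3 SD, at -1.66 for nonspecific siRNA (1.59% of all) and -1.62 for CDK11 siRNA (1.62%) against untransfected cells.

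**Figure D4:**
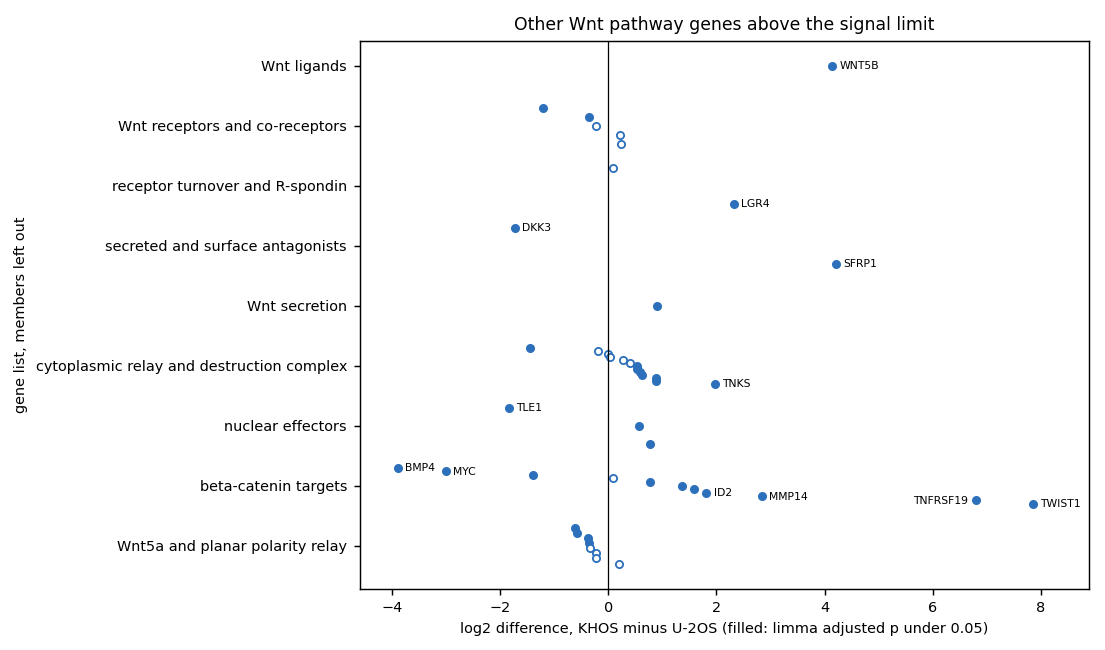
Log2 difference of KHOS minus U-2OS for the other Wnt pathway genes above the signal limit, by the brightest probe set of each gene and grouped by list. A gene in 2 lists is drawn in both, filled points passed limma at an adjusted p of 0.05, and names mark the outlying genes. TWIST1 at 7.86 and BMP4 at -3.89 are the outermost points, each with 1 line below the signal limit.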

How the data were processed

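RNA of 6 cultures was hybridised to Affymetrix U133 Plus 2.0 arrays. The authors deposited log2 values of 54675 probe sets, made with gcrma (background correction, quantile normalization, summary per probe set). The table has no detection calls, and the present and absent calls in the methods were not used here. Genes were named from the platform annotation (41097 probe sets with 1 symbol, 1801 with several, 11777 with none), with symbols and promoters from RefSeq, assembly GRCh38.p14. No value column was left unmapped.

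Probe sets with a highest value above log2(100) = 6.64 were kept. They were fitted with limma 3.58.1 (R 4.3.3) with cell line and transfection as terms, 2 residual degrees of freedom, two-sided, with Benjamini-Hochberg adjustment at 0.05 over all 16397. Within a line, the log2 difference of 2 arrays was called when it lay beyond 3 SD from the mean of that difference among kept probe sets, after the methods, with no p-value. Both procedures were tested on simulated data. Differences are the first-named group minus the second. Python 3.11.15, pandas 2.3.3, numpy 2.4.6 and matplotlib 3.10.9 were used.

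The members, the pathway lists and the naming rule were chosen with earlier results of these data known. The rule names every member probe set, and listed genes that passed limma or lay beyond 3 SD in both lines. At most 3 of a list were then named, so listed genes that passed can go unnamed. Among these are MYC, lower in KHOS, and CCND1 and CD44, higher in KHOS. It asked for probe sets with 1 symbol, and those of FZD8, which have 2, were added as assigned to both. Listed genes beyond 3 SD in 1 line were named after their values were seen. Alternatives covered the filter, 1 probe set per gene, the variance prior, the scaling, the terms and arrays of the fit, and the within-line threshold. A comparison of the receptors' protein sequences was not run. The number of arrays limits the precision.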

Additional observations from a re-analysis of the deposited data

How the results depend on the processing

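Between the lines, each of the 13 kept members had the same sign under every alternative in which it was tested. When any 1 array was left out 12 passed, with 9836 to 10978 passing over all probe sets. Leaving out the KHOS or the U-2OS array of a transfection gave the same fit between the lines, so these are not separate checks. Members above the limit in 1 line only had to differ, so their passing carries no support. With 1 probe set per gene 7 of 8 members and 6362 of 8878 genes passed. Without the filter RNF43 no longer passed (limma, adjusted p = 0.0528). Centring moved the median of all kept probe sets from 0.0985 to -0.0548 and quantile scaling to -0.01896, and the calls over all probe sets, 6486 higher and 5343 lower in KHOS as deposited, became 5664 and 6238 when centred and 5763 and 6049 with quantile scaling. When the variance prior was let follow the level, 211 probe sets passed for CDK11 against nonspecific siRNA, 5 for nonspecific siRNA against untransfected cells and 574 for CDK11 siRNA against untransfected cells, the last with 3 members, FZD7 (203705_s_at, adjusted p = 0.0439) and the FZD8 probe sets (0.0343 and 0.0326). Leaving out single arrays gave RNF43 differences from -0.15 to 1.99 against nonspecific siRNA and from -0.28 to 1.28 against untransfected cells. In the same way FZD7 ranged from -1.37 to -0.43 (203705_s_at) and -1.18 to -0.48 (203706_s_at) against nonspecific siRNA, and from -1.76 to -0.84 and -1.58 to -0.59 against untransfected cells. FZD6 ranged from 0.25 to 0.80 and from 0.32 to 0.87, and FZD8 from 0.46 to 0.92 and 0.94 to 1.30 (224325_at) and from 0.027 to 0.55 and 0.76 to 1.07 (227405_s_at), so the signs held and the sizes did not. The lowest size of FZD7 and FZD8 against nonspecific siRNA was without the KHOS nonspecific siRNA array. Without that array the contrast leans on U-2OS, where each of these probe sets differed less from nonspecific siRNA than in KHOS. Why the lines differed in this was not tested.

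Within KHOS, the members counted for CDK11 against nonspecific siRNA were 2 beyond 2 SD, 2 without the filter, and 1 each with a difference beyond 1, with the median and MAD, and with both arrays above the limit. All of these were FZD7. For nonspecific siRNA against untransfected KHOS cells there were 3 beyond 2 SD, 3 with the median and MAD and 2 without the filter, and for CDK11 siRNA against untransfected KHOS cells 1 with a difference beyond 1. In U-2OS, nonspecific siRNA against untransfected cells gave 4 beyond 2 SD and 4 with the median and MAD, and CDK11 siRNA against untransfected cells gave 5 beyond 2 SD and 5 without the filter. The share of all probe sets counted was 4.84% to 5.58% beyond 2 SD, 4.11% to 5.55% with the median and MAD, 2.09% to 6.51% with a difference beyond 1, 2.28% to 2.51% without the filter and 1.27% to 1.46% with both arrays above the limit, over the 6 contrasts. With both arrays required to be above the limit, 4 members of U-2OS were left and 0 were counted in each contrast. Signals near background limit the differences of DKK1, RNF43 and FZD2 (238129_s_at) in the line where they are low.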
